A study of Mus musculus with 4 samples.

Results

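The genes described here encode the heterogeneous nuclear ribonucleoproteins (hnRNPs) and the SR proteins, the main families of proteins that bind pre-mRNA and set where it is spliced. They were taken from the deposited gene tables as all symbols that begin with Hnrnp, or with Srsf and a digit, and that had an expected count of at least 10 in at least 2 libraries. This gave 31 of the 24369 genes listed, 20 hnRNP genes and 11 SR genes, and the count requirement removed none. All 31 were among the 14143 genes with enough counts to be tested.

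The RNA came from naïve CD4 T cells of spleens of WT C57BL/6 mice. The cells were cultured under unpolarized conditions with anti-CD3, anti-CD28 and IL-2, and after 2 days were given either an empty retrovirus, MSCV-IRES-eGFP (EV RV), or the same virus carrying Tox, MSCV-Tox-IRES-eGFP (Tox RV). On day 5 both groups were restimulated through the T cell receptor, and GFP+ CD4 cells, which carry the virus, were sorted for RNA-seq. Each group held 2 libraries, said by the study to come from separate mice, and Tox was expressed from the viral vector in a mixed population of transduced cells, on top of the cells' own Tox gene. In bulk RNA of this kind, fewer cells that express a gene and less RNA per cell cannot be told apart.

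SR proteins carry a domain rich in arginine and serine and mostly bind exonic enhancers, where they help the spliceosome recognise an exon. Many hnRNPs bind silencers and favour exon skipping, and several also act in mRNA export, stability and translation. In T cells the best known case is *Ptprc*, the gene of the CD45 phosphatase, whose variable exons are skipped after activation with the help of *Hnrnpll* and *Hnrnpl*. Many genes of both families control their own level through exons or introns that carry a premature stop codon, so that the spliced product is destroyed by nonsense-mediated decay.

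The 4 libraries held between 46989997 and 74548723 expected counts, the number of fragments that the quantification program assigned to genes. Counts per 1000000 (CPM) below were scaled by edgeR's TMM method, and transcripts per 1000000 (TPM) are the deposited values, which take gene length into account. Where 2 values are given for a group they are those of replicates 1 and 2, in that order. *Tox* itself measured 11.7 and 5.73 CPM in EV RV against 121 and 99.9 CPM in Tox RV, on the side of the labels in all 4 libraries. The 6 CD4 T cell identity genes summed to 1359 to 1954 CPM in EV RV and 1648 to 1800 CPM in Tox RV. Markers of other cells were low, and their sums cover only the genes with enough counts to be tested. The 2 CD8 genes summed to 3.88 to 4.77 CPM over all libraries. For 2 of the 4 B cell genes the sum was 1.09 to 1.62 CPM, and for 3 of the 5 myeloid genes 0.88 to 1.40 CPM. For 3 of the 4 NK cell genes it was 52.0 and 12.6 CPM in EV RV against 28.1 and 7.04 CPM in Tox RV. The defining genes *Ncr1* of NK cells and *Ms4a1* of B cells were at 0 in all 4 libraries. EV RV replicate 1 stood apart from the other 3, with 24.7% of its counts on the ribosomal RNA precursor *Rn45s* against 7.14% to 11.97% elsewhere, so log2 fold changes are also given without it.

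Both families were abundant, and the order of their members by TPM is a description of these 4 libraries. The hnRNP genes summed to 3361 and 4175 TPM in EV RV against 3870 and 4021 TPM in Tox RV. The SR genes summed to 1379 and 1918 TPM in EV RV against 1731 and 1887 TPM in Tox RV. In TPM, EV RV replicate 1 gave the lowest sum of each family and EV RV replicate 2 the highest, with both Tox RV libraries in between. In CPM the SR genes summed to 2004 and 2985 in EV RV against 2705 and 3023 in Tox RV. There Tox RV replicate 2 was the highest.

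*Hnrnpa1*, a repressor of exon inclusion that shuttles between nucleus and cytoplasm, had the highest mean level, with 519 and 645 TPM in EV RV against 574 and 558 TPM in Tox RV. *Hnrnpf*, which binds runs of guanine, had 374 and 592 TPM in EV RV against 510 and 578 TPM in Tox RV. *Hnrnpab*, an A/B-type protein also studied in mRNA transport, had 337 and 508 TPM in EV RV against 476 and 493 TPM in Tox RV. The spread between the EV RV libraries covered the Tox RV values of all 3 genes, so their order could not be set beyond the spread between libraries. Among SR genes *Srsf2*, a component of nuclear speckles, was highest, with 351 and 462 TPM in EV RV against 400 and 462 TPM in Tox RV. *Srsf3*, the smallest SR protein, followed with 239 and 351 TPM in EV RV against 284 and 330 TPM in Tox RV. *Srsf5* had 205 and 285 TPM in EV RV against 321 and 295 TPM in Tox RV, both Tox RV values lying above both EV RV values. At the other end, *Srsf12* had a mean of only 0.14 TPM, from 17 and 12 counts in EV RV against 18 and 5 counts in Tox RV. Every other gene of the 31 had a mean of at least 6.59 TPM, the level of *Hnrnph3*.

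**Figure D1:**
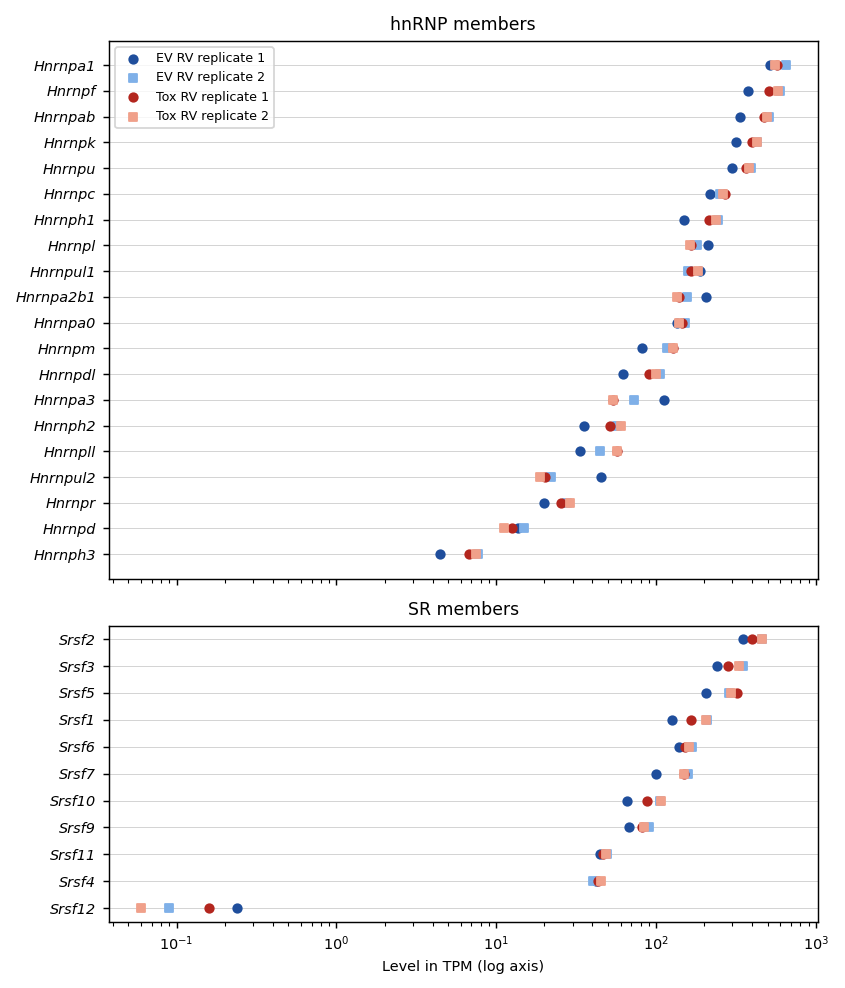
Level of each gene in TPM on a log axis, 1 point per library, with hnRNP genes above and SR genes below, each ordered by mean TPM. Of the 31 genes only Srsf12 lies below 1 TPM, and the dark blue circle of EV RV replicate 1 is the leftmost point in most lines.

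The comparison of Tox RV with EV RV asks whether Tox changed the level of the splicing factors. At an adjusted p below 0.05, 0 of the 31 genes were called in edgeR's quasi-likelihood test (Benjamini-Hochberg adjustment over all genes tested), the smallest adjusted p being 0.897. The same test called 0.0% of all genes tested. *Tox* itself had a log2 fold change of 3.68 and an adjusted p of 0.490 in edgeR's quasi-likelihood test. In DESeq2 its adjusted p was 1.6e-20. DESeq2, the tool named in the methods, called 0 of the 31 and 0.156% of all genes (22 of 14143). At an unadjusted p below 0.05, 1 of the 31 was higher in Tox RV (*Hnrnpll*) and 1 was lower (*Hnrnpa3*), which is 3.23% each, against 1.07% of all genes higher and 2.55% lower. The call rested on the choice of libraries, since 5 of the 31 (*Hnrnpa3*, *Hnrnpll*, *Hnrnpm*, *Hnrnpul2* and *Srsf7*) passed the adjusted threshold when EV RV replicate 2 was left out and EV RV replicate 1 stood alone. This was 16.1% of the 31, against 4.16% of all genes in the same fit (600 of 14408). The differences were small, with 28 of the 31 log2 fold changes inside 0.5 in either direction. These counts do not show that the levels were alike, since a 2-library group gave standard errors of 0.16 to 0.32 log2 units for the 30 genes other than *Srsf12*.

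In direction the families leaned towards higher values in Tox RV. Of the 31 genes 25 (80.6%) had a log2 fold change above 0, against 50.4% of all genes tested, and the median was 0.20 against 0.0036 for all genes. The hnRNP genes divided into 15 higher and 5 lower with a median of 0.24, and the SR genes into 10 higher and 1 lower with a median of 0.16. This lean did not outlast the removal of EV RV replicate 1. Values without that library, here and below, set both Tox RV libraries against EV RV replicate 2 alone. EV RV replicate 2 had the highest TPM sum of both families, so such values are not corrected estimates. Without EV RV replicate 1, 9 of the 31 (29.0%) were higher and 22 lower, against 50.5% of all genes higher, the median was -0.059, and the family medians were -0.054 (hnRNP) and -0.059 (SR).

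EV RV replicate 1 was the lowest of the 4 libraries in 24 of the 31 genes (77.4%), against 37.0% of all genes. It was the highest in 5 (16.1%), against 5238 of the 14143 genes tested. It was lowest in 14 of the 20 hnRNP genes and 10 of the 11 SR genes, the exception among the latter being *Srsf12*. The median log2 difference between EV RV replicates 1 and 2 was -0.48 over the 31 genes, while that between Tox RV replicates 1 and 2 was -0.05. Over all genes tested these medians were 0.0048 (EV RV) and 0.0026 (Tox RV). The Tox RV replicates lay farther apart than the EV RV replicates in 2 of the 31, and the share over all genes was not computed. The same library had the highest share of *Rn45s* and the highest sum of NK cell genes, and the part of either in these values was not tested.

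**Figure D2:**
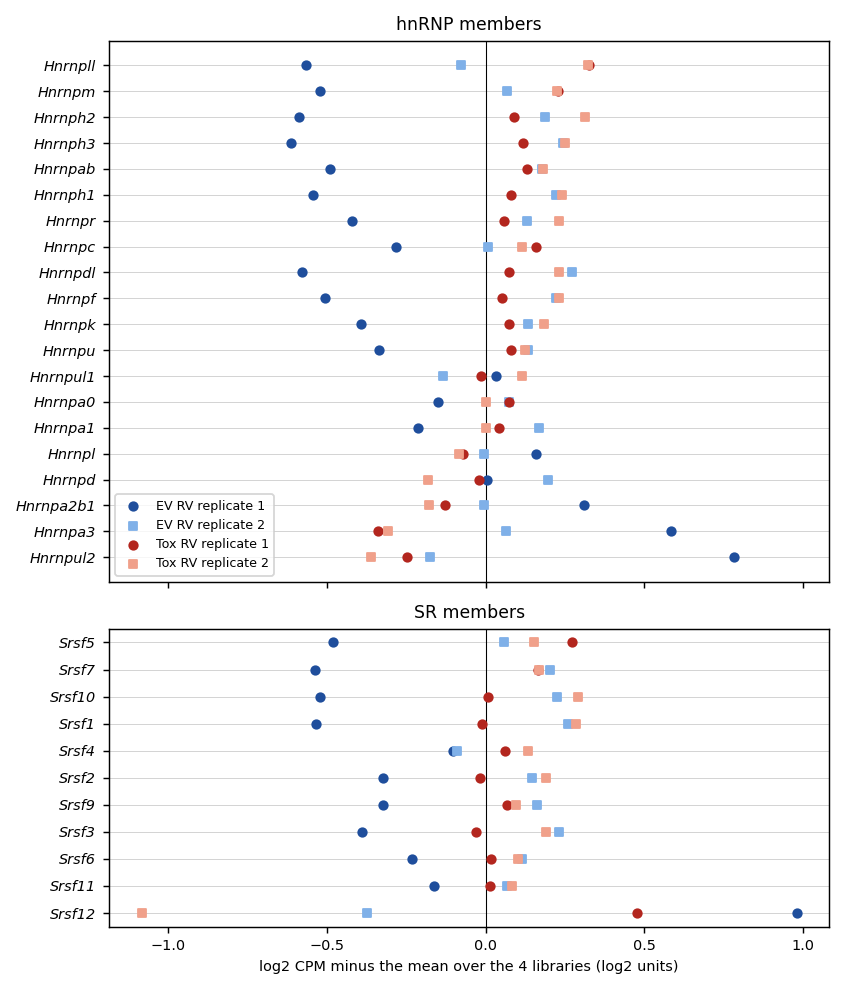
log2 CPM of each gene in each library minus the gene's mean over the 4 libraries, ordered by log2 fold change within each family. EV RV replicate 1 (dark blue circles) lies at the far left in 24 of the 31 genes and at the far right in 5. The other 3 libraries lie close together in many genes but not in all, as in Hnrnpll and Srsf12.

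The Tox RV pair lay entirely above the EV RV pair in 5 of the 31 genes (16.1%), against 18.6% of all genes. It lay entirely below in another 5 (16.1%), against 17.4% of all genes. Both shares were near those of all genes. The first 5 were *Hnrnpll*, *Hnrnpm*, *Srsf5*, *Hnrnpc* and *Srsf4*, and the second were *Hnrnpul2*, *Hnrnpa3*, *Hnrnpa2b1*, *Hnrnpd* and *Hnrnpl*.

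*Hnrnpll*, the CD45 splicing regulator (mm10 chr17:80029487-80062334, minus strand, protein coding), had 57.9 and 81.2 CPM in EV RV against 107 and 107 CPM in Tox RV. The Tox RV libraries were nearly equal and exceeded those of EV RV. The difference was 0.62 on the log2 scale (log2 fold change; SE 0.21), with an unadjusted p of 0.0276 and an adjusted p of 0.897 by edgeR's quasi-likelihood test (Benjamini-Hochberg adjustment). It was 0.39 without EV RV replicate 1, and still positive. Its relative *Hnrnpl*, which binds the same kind of CA-rich element, had 252 and 225 CPM in EV RV against 214 and 212 CPM in Tox RV. *Hnrnpl* was thus slightly lower in both Tox RV libraries (log2 fold change -0.16, SE 0.16), and -0.081 without EV RV replicate 1.

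*Hnrnpm*, a splicing regulator of GU-rich elements (mm10 chr17:33646233-33686860, minus strand), had 113 and 171 CPM in EV RV against 191 and 190 CPM in Tox RV. Its log2 fold change was 0.43 (SE 0.23), and 0.15 without EV RV replicate 1. *Hnrnpm* shares 1169 exonic bases on the same strand with the gene annotated as *March2*, whose own log2 fold change was 0.06, so reads of that stretch could have been given to either. *Srsf5* (mm10 chr12:80945504-80950507, plus strand) had 174 and 254 CPM in EV RV against 294 and 271 CPM in Tox RV. Its log2 fold change of 0.40 (SE 0.23) was the highest among SR genes, and it was 0.15 without EV RV replicate 1. *Srsf4*, a long SR protein with an extended arginine-serine domain, had 52.7 and 53.1 CPM in EV RV against 59.0 and 62.1 CPM in Tox RV. It was the SR gene on which EV RV replicate 1 bore least, with a log2 fold change of 0.20 (SE 0.16) and of 0.18 without that library. *Hnrnpc*, which packages nascent transcripts and binds uridine tracts, had 343 and 419 CPM in EV RV against 465 and 451 CPM in Tox RV, a log2 fold change of 0.27 (SE 0.18) that was 0.12 without EV RV replicate 1.

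*Hnrnpul2*, a relative of the scaffold attachment factor *Hnrnpu* (mm10 chr19:8820010-8834143, plus strand), had the lowest log2 fold change of the 31. It had 150 and 77.4 CPM in EV RV against 73.7 and 68.1 CPM in Tox RV. Only EV RV replicate 1 was high, and the other 3 libraries were close together. The log2 fold change was -0.68 (SE 0.32), and -0.13 without that library. *Hnrnpa2b1*, an A/B-type protein that also acts in mRNA transport, had 254 and 205 CPM in EV RV against 188 and 181 CPM in Tox RV, a log2 fold change of -0.31 (SE 0.18) that was -0.16 without the same library. *Hnrnpd*, which binds AU-rich elements in short-lived mRNAs, had 54.3 and 62.1 CPM in EV RV against 53.5 and 47.8 CPM in Tox RV. Its log2 fold change of -0.20 (SE 0.18) was -0.30 without EV RV replicate 1, so that library did not carry the direction. *Srsf12* had a log2 fold change of -0.47 with the largest standard error of the 31, 0.79, its groups overlapped, and it was 0.30 without EV RV replicate 1.

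**Figure D3:**
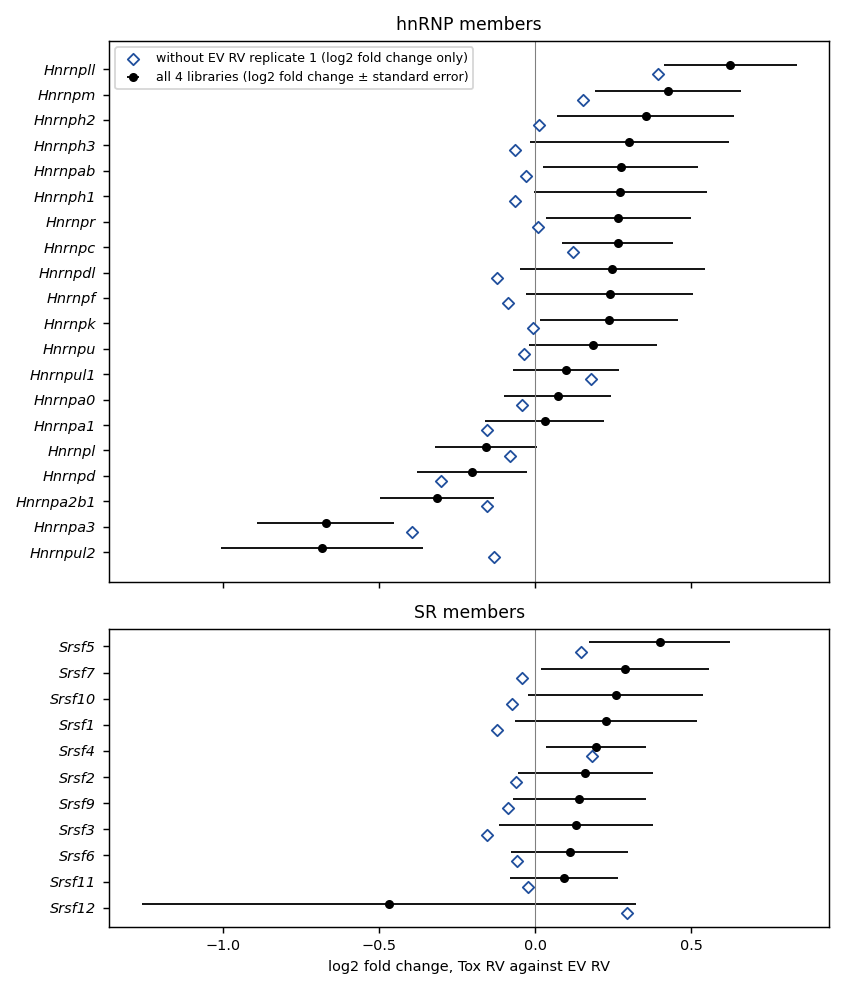
log2 fold change of Tox RV against EV RV for each gene, from all 4 libraries (black, with standard errors) and without EV RV replicate 1 (open diamonds). The diamonds lie nearer to 0 than the black points for Hnrnpul2, Hnrnpm and Srsf5, and most SR diamonds lie just below 0.

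The remaining 20 genes had overlapping groups and log2 fold changes between 0.03 and 0.35. Among the guanine-run binders, *Hnrnpf* was at 0.24, *Hnrnph1* at 0.27, *Hnrnph2* at 0.35 and *Hnrnph3* at 0.30. The abundant *Hnrnpk*, which binds cytosine-rich RNA through KH domains, was at 0.24. *Hnrnpu*, a large protein of the nuclear matrix, was at 0.18, its relative *Hnrnpul1* at 0.10, and *Hnrnpr*, an RNA-binding protein close to *Syncrip*, at 0.27. *Hnrnpab* was at 0.27, *Hnrnpdl*, a relative of *Hnrnpd*, at 0.25, *Hnrnpa0* at 0.07 and *Hnrnpa1* at 0.03. Of the SR genes, *Srsf1*, the founding member of the family, was at 0.23 and *Srsf7*, which carries a zinc knuckle, was at 0.29. *Srsf10*, a repressor when dephosphorylated, was at 0.26, *Srsf2* at 0.16, *Srsf9* at 0.14, *Srsf3* at 0.13, *Srsf6* at 0.11 and *Srsf11* at 0.09. For all of these except *Hnrnpul1*, EV RV replicate 1 was the lowest of the 4 libraries. Without it 17 of the 20 were below 0, between -0.15 and -0.0085, and the other 3 were *Hnrnph2* at 0.011, *Hnrnpr* at 0.0098 and *Hnrnpul1* at 0.18. In CPM, *Hnrnpf* ran at 484 and 802 in EV RV against 712 and 806 in Tox RV, so that only EV RV replicate 1 was low. *Srsf3* ran at 359 and 553 CPM in EV RV against 462 and 537 CPM in Tox RV, and *Srsf2* at 369 and 510 CPM in EV RV against 456 and 527 CPM in Tox RV.

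*Hnrnpa3*, an A/B-type hnRNP (mm10 chr2:75659261-75669407, plus strand), has a near-identical copy in the same table, *Gm6793* (mm10 chr8:112013433-112015036, minus strand), which RefSeq lists as a transcribed pseudogene and GENCODE as protein coding. The transcript of *Hnrnpa3* has 11 exons and *Gm6793* has 1. Over 1476 aligned bases their annotated transcripts are 98.3% identical, with 6 base differences and 19 gap positions. The 2 stretches printed here come from exon 3 of *Hnrnpa3* and the matching part of *Gm6793*. Both show the window without gaps, inside a coding exon, that held the most base differences. Each runs 5′ to 3′ on the gene's own strand over 120 bases, in lower case, with the 3 bases at which they differ in capitals.
*Hnrnpa3*, mm10 chr2:75661689-75661808: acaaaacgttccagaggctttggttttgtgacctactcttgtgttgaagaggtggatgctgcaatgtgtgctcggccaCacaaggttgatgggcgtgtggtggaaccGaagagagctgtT
*Gm6793*, mm10 chr8:112014742-112014861: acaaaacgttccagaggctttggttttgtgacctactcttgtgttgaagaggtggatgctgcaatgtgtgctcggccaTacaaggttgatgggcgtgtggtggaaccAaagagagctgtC
A read that covers no position at which the transcripts differ matches both genes, and the deposited counts rest on how the quantification program shared such reads out.

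As deposited, *Hnrnpa3* had 299 and 208 CPM in EV RV against 158 and 161 CPM in Tox RV. The Tox RV libraries were close to each other and below those of EV RV. The log2 fold change was -0.67 (SE 0.22), with an unadjusted p of 0.0236 and an adjusted p of 0.897 by edgeR's quasi-likelihood test (Benjamini-Hochberg adjustment). Without EV RV replicate 1 it was -0.39. *Gm6793* had 82.2 and 23.8 CPM in EV RV against 12.4 and 15.3 CPM in Tox RV. EV RV replicate 1 was by far the highest, and EV RV replicate 2 was also above both Tox RV libraries. The log2 fold change of *Gm6793* was -1.93 (SE 0.56; unadjusted p of 0.0149 and adjusted p of 0.897 by edgeR's quasi-likelihood test (Benjamini-Hochberg adjustment)). DESeq2 called *Gm6793*, with an adjusted p of 0.0433. Without EV RV replicate 1 its log2 fold change was -0.79.

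*Gm6793* also shares 108 exonic bases with *Terf2ip*, a telomere protein gene on the opposite strand, and use of strand in counting is not stated. *Terf2ip* had a log2 fold change of -0.04 (SE 0.19). Of the 31 genes, *Hnrnpab*, *Hnrnph3*, *Hnrnpk*, *Hnrnpu*, *Srsf2* and *Srsf4* likewise share 115 to 1532 exonic bases with a gene on the opposite strand, and without strand the reads of such stretches cannot be told apart.

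The share of the joint counts given to *Gm6793* was 21.6% and 10.3% in EV RV against 7.29% and 8.69% in Tox RV. The division between both genes thus differed most in EV RV replicate 1. With the counts of both genes added before the fit, the values were 381 and 232 CPM in EV RV against 170 and 176 CPM in Tox RV. The sum was lower in Tox RV with no overlap of the groups, with a log2 fold change of -0.83 (SE 0.26), so adding *Gm6793* did not remove the difference. Its unadjusted p was 0.0214 and its adjusted p 0.897 by edgeR's quasi-likelihood test (Benjamini-Hochberg adjustment), and DESeq2 gave -0.83 with an adjusted p of 0.501. The log2 fold change of the sum was -0.43 once EV RV replicate 1 was left out. *Hnrnpa3* has further near-identical copies outside the deposited table, among them *Gm5641*, a transcribed processed pseudogene identical over 1488 bases. Reads of such copies could have been given to *Hnrnpa3* or *Gm6793*, so the sum does not settle which gene they came from.

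**Figure D4:**
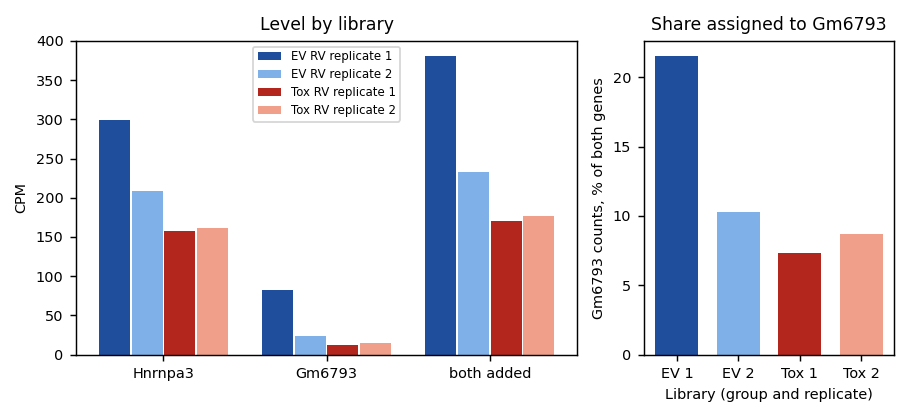
Left, CPM of Hnrnpa3, Gm6793 and both added in each library; right, counts of Gm6793 as a percentage of the counts of both genes. The Tox RV bars are below the EV RV bars in all 3 groups at left, and EV RV replicate 1 has the highest share at right, 21.6%.

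Near-identical copies also touch other members. A search of the annotated mouse transcripts for copies at least 95% identical over at least 500 bases found 1 or more for 11 of the 31 genes, but only 3 genes (*Hnrnpa1*, *Hnrnpa3* and *Hnrnpm*, the last through *March2*) had one in the deposited table. For *Hnrnpa1* these were the processed pseudogenes *Gm10052*, identical over 960 bases, and *Gm5643*, 98.7% identical over 955 bases. Together they took 15.6% and 21.1% of the joint counts in EV RV against 25.5% and 21.7% in Tox RV. With both added to *Hnrnpa1*, an alternative chosen after seeing the data, the values were 594 and 828 CPM in EV RV against 804 and 742 CPM in Tox RV. The groups still overlapped, and the log2 fold change was 0.12 (SE 0.21) in place of 0.03. Without EV RV replicate 1 the summed value was -0.11, and that of *Hnrnpa1* by itself -0.15.

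The deposited tables also give for each gene a transcript length weighted by the abundance of its transcripts, which moves when the mix of transcripts moves. It says nothing of genes with a single transcript, among them *Hnrnpll*, and 18 of the 31 genes had 2 or more. Among the transcripts of 5 genes (*Hnrnpa1*, *Hnrnpa2b1*, *Srsf3*, *Srsf7* and *Srsf9*) is a noncoding one. In *Srsf3* and *Srsf7* one transcript includes a decay exon, an exon whose inclusion brings a stop codon before the normal end of the protein. The start of each is printed here, 5′ to 3′ on the gene's strand, up to and including its stop codon in capitals, because these are the switches by which such transcripts are marked for decay.
*Srsf3*, first 34 of 456 bases of exon 4, mm10 chr17:29039454-29039487, plus strand: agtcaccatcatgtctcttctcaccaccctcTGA
*Srsf7*, first 28 of 460 bases of exon 4, mm10 chr17:80205054-80205081, minus strand: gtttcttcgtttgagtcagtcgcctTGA
The weighted length of *Srsf3* was 2661 and 2646 bases in EV RV against 2650 and 2654 bases in Tox RV. That of *Srsf7* was 2505 and 2494 bases in EV RV against 2496 and 2495 bases in Tox RV. The groups overlapped for both genes, with EV RV replicate 1 the longest.

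Of the 18 genes, 3 (16.7%) were longer in Tox RV with no overlap of the groups (*Hnrnpa3*, *Srsf11* and *Hnrnpk*), against 12.9% of the 3978 genes of this kind. Another 7 (38.9%) were shorter in the same sense (*Hnrnpa1*, *Hnrnpd*, *Hnrnpf*, *Hnrnpm*, *Srsf5*, *Srsf9* and *Srsf10*), against 16.7%. In 5 of these 7 genes EV RV replicate 1 was the longest of the 4 libraries. The shifts were small, with a range over the 4 libraries of 1.92 to 33.3 bases for every gene but *Hnrnpa3*. *Hnrnpf*, for example, had 2313 and 2300 bases in EV RV against 2294 and 2295 bases in Tox RV. *Hnrnpa3* had the widest range, 201 bases, with 4584 and 4676 bases in EV RV against 4681 and 4785 bases in Tox RV. The *Hnrnpa3* values of EV RV replicate 2 and Tox RV replicate 1 differed by less than the replicates of either group. *Ptprc*, looked at as the target of *Hnrnpll* and chosen after its values were seen, had 5305 and 5272 bases in EV RV against 5272 and 5271 bases in Tox RV, with overlapping groups.

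**Figure D5:**
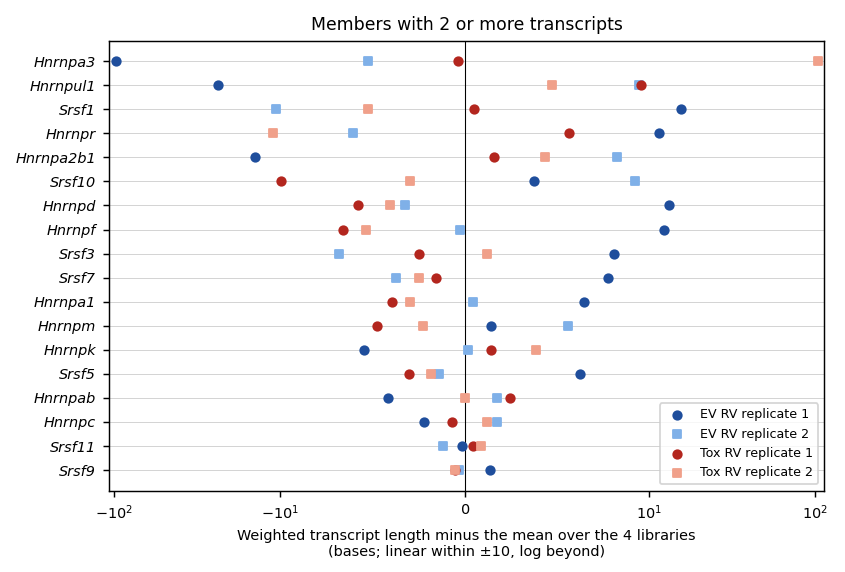
Abundance-weighted transcript length in each library minus the gene's mean over the 4 libraries, in bases (linear within 10 bases of 0 and log beyond), for the 18 genes with 2 or more transcripts, ordered by range. Only Hnrnpa3, at the top, spans more than 34 bases.

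The other genes of the splicing machinery were taken from 4 lists, and 0 of their genes passed the same threshold in edgeR's quasi-likelihood test (Benjamini-Hochberg adjustment), nor in DESeq2. Of 24 other hnRNP-class and regulatory RNA-binding proteins, 10 had a log2 fold change above 0 and 14 below, with a median of -0.04. Without EV RV replicate 1 there were 8 above and 16 below, with a median of -0.046. *Pcbp2*, a KH-domain protein named after its values were seen, had 339 and 133 CPM in EV RV against 97.5 and 101 CPM in Tox RV, a log2 fold change of -1.25 (SE 0.43, unadjusted p 0.0279 by edgeR's quasi-likelihood test). EV RV replicate 1 was far above the other 3 libraries in *Pcbp2*, the reverse of its place in most hnRNP and SR genes. Without it the log2 fold change of *Pcbp2* was -0.43. The highest of this list was *Rbfox2*, a factor of neural and muscle splicing, at 0.60 (SE 0.71) with at most 0.36 CPM, and at 1.63 without EV RV replicate 1.

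Among 21 SR-related proteins and SR protein kinases, 14 were above 0 and 7 below, with a median of 0.08. This direction turned without EV RV replicate 1, where 9 were above 0 and 12 below, with a median of -0.018. The lowest was *Srrm2*, a scaffold of nuclear speckles, with 1395 and 724 CPM in EV RV against 596 and 532 CPM in Tox RV. Its log2 fold change was -0.91 (SE 0.32, unadjusted p 0.0315 by edgeR's quasi-likelihood test), and again EV RV replicate 1 was highest. It was -0.37 without that library. The highest was *Tra2a*, an SR-like splicing activator, at 0.44 (SE 0.31), with overlapping groups, and at 0.062 without EV RV replicate 1. The 42 spliceosomal snRNP and core factors divided into 32 above 0 and 10 below with a median of 0.17, between 0.55 for the Sm protein gene *Snrpf* and -0.62 for *Sf3a2*, a subunit of the U2 particle. EV RV replicate 1 was the lowest library in 28 of these 42, and without it the list had 24 above 0 and 18 below, with a median of 0.033, *Snrpf* at 0.055 and *Sf3a2* at -0.0072. The 8 nonsense-mediated decay factors had 3 above 0 and 5 below with a median of -0.10, between 0.32 for *Upf3a* and -0.21 for *Upf2*. The counts of this list without EV RV replicate 1 were again 3 and 5, the median was -0.045, *Upf3a* was at 0.11 and *Upf2* at -0.041.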

How the data were processed

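RNA-seq libraries (2 EV RV, 2 Tox RV) were grouped by their labels. Per the methods and the submitters' processing notes, the authors used FastQC for read quality, Bowtie for alignment to mm10 transcripts and RSEM for gene quantification; the notes also list Bowtie2 and DESeq2, and versions and strand use are not given in the sources used here. The deposited expected counts are RSEM's unnormalized estimates and need not be whole. The deposited TPM values sum to 1000000 in each library, and the deposited FPKM values were read but served no result. A deposited table of the whole series was not used. The labels list a second anti-CD28 where the methods name IL-2, and the sources name anti-CD3 alone or with anti-CD28 for the restimulation.

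Expected counts were rounded and fitted in R 4.3.3 with edgeR 4.0.16 (filterByExpr with a minimum count of 10, TMM, glmQLFit and glmQLFTest, no block), with Benjamini-Hochberg adjustment over 14143 genes. Standard errors (SE) come from the log2 fold change and its F statistic. The common biological coefficient of variation was 0.232. Depth was 46989997 to 74548723 counts per library. At the counts of the 31 hnRNP and SR genes, *Srsf12* excepted, counting error is small beside that coefficient. Alternatives were DESeq2 1.42.0, other scalings and filters, a replicate block, limma 3.58.1 on log2(TPM + 1) and log2(TPM + 0.1), and leaving out each library. The scripts were tested on simulated data. There edgeR recovered 34 of 100 genes changed 2-fold and 98 of 100 changed 4-fold, with 17 false calls. DESeq2 recovered 67 of 100 and 98 of 100, with 53 false calls. The simulated libraries were drawn independently around each gene's mean, with no shift shared by many genes such as EV RV replicate 1 showed. Those recovery rates need not hold for the real data, where edgeR's quasi-likelihood test called 0 of 14143 genes. There it gave *Tox* an adjusted p of 0.490 at a log2 fold change of 3.68. Gene positions and transcripts are from GENCODE on GRCm38 (mm10), with copies found by BLAST 2.17.0.

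Per-library values are given for the 3 genes of each family with the highest mean TPM, the 5 largest log2 fold changes of either sign, genes with an unadjusted p below 0.05, *Hnrnpll*, *Hnrnpa3* and *Gm6793*, and for genes whose groups did not overlap, the last chosen after their values were seen. Of each other list, the highest and lowest log2 fold changes are named, except 1 gene that is not reported here. The genes, lists and tests were chosen with earlier results of these data known.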

Additional observations from a re-analysis of the deposited data

How the results depend on the processing

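The number of all genes called was 0 in the reported test, 22 in DESeq2, 22 with no filter, 16 with the replicate block and 1 to 600 when each library was left out. Of the 31 genes, 0 to 5 were called when a library was left out, and the 5 (*Hnrnpa3*, *Hnrnpll*, *Hnrnpm*, *Hnrnpul2* and *Srsf7*) came without EV RV replicate 2, where 4.16% of all genes (600 of 14408) were called and the lone EV RV library is assumed to vary like the Tox RV libraries. Leaving out each library gave medians of -0.054 to 0.49 (hnRNP) and -0.059 to 0.42 (SR), and -1.13 to -0.43 for *Hnrnpa3* summed with *Gm6793*. The lower end of both medians came without EV RV replicate 1 and the upper end without EV RV replicate 2.

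Without EV RV replicate 1, 18 of the 31 log2 fold changes changed sign. Over the 4 libraries left out in turn, the ranges were -0.042 to 0.19 for *Hnrnpa0*, -0.15 to 0.24 for *Hnrnpa1*, -0.028 to 0.65 for *Hnrnpab*, -0.12 to 0.74 for *Hnrnpdl*, -0.087 to 0.65 for *Hnrnpf*, -0.066 to 0.71 for *Hnrnph1*, -0.066 to 0.80 for *Hnrnph3*, -0.0085 to 0.53 for *Hnrnpk*, -0.038 to 0.44 for *Hnrnpu*, -0.12 to 0.68 for *Srsf1*, -0.075 to 0.68 for *Srsf10*, -0.025 to 0.22 for *Srsf11*, -1.48 to 0.30 for *Srsf12*, -0.062 to 0.42 for *Srsf2*, -0.15 to 0.48 for *Srsf3*, -0.059 to 0.30 for *Srsf6*, -0.042 to 0.71 for *Srsf7* and -0.086 to 0.41 for *Srsf9*. On log2(TPM + 1) and log2(TPM + 0.1), *Hnrnpa0* (-0.0071 and -0.0072) and *Hnrnpa1* (-0.033 in both) were also below 0. *Hnrnpa1* summed with its copies was at -0.11 without EV RV replicate 1. Under DESeq2, both other scalings, both other filters and the replicate block, all 31 kept their direction and 0 passed the threshold. *Gm6793* passed it in DESeq2, with no filter, and without EV RV replicate 2 or Tox RV replicate 2. Scaling by library totals moved the median of all genes to 0.12, that of the hnRNP genes to 0.34 and that of the SR genes to 0.27.

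The replicate numbers are not stated to mark a mouse, and the differences between replicates 1 and 2 correlated between the groups with r = 0.39 across 14143 genes, which are not independent replicates. With the replicate block, 0 of the 31 were called. With 2 libraries per group, differences of the size seen in most of these genes lie within the spread between libraries, and the causes of the changes above were not tested.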
